A study of Mus musculus with 3 samples.

Results

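Elastic fibre genes were examined in the mouse posterior frontal suture, the midline joint between the frontal bones. The set holds 10 genes: Eln, Fbn1, Fbn2, Mfap5, Fbln1, Fbln2, Fbln5, Efemp2, Lox and Loxl1. Its members were found as the non-control spots whose gene name in the scanner files equals one of these symbols. This gave 16 probes of the 55680 on the array, which stand for 10 of 35019 named genes. RNA came from C57BL/6 sutures in 3 groups: Runx2+/+ at postnatal day 5 (P5), Runx2+/+ at P7 and Runx2+/- at P7. The Runx2+/+ mice are called wild type below, and the Runx2+/- mice carry 1 functional copy of Runx2, the transcription factor needed for bone-forming cells. Each group was measured on 1 one-colour array, and the number of mice behind each RNA sample is not stated in the labels.

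Elastic fibres give tissues recoil. Their core is cross-linked elastin, laid down on a scaffold of fibrillin microfibrils. Fibulins help to bring the soluble elastin precursor and the lysyl oxidases to that scaffold, and the lysyl oxidases oxidise lysine side chains so that elastin and collagen become cross-linked. In sutures and periosteum such fibres lie within fibrous connective tissue, and elastin is also made in large amounts by the smooth muscle of arteries.

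No group has a replicate, so each difference below is between 2 single arrays and has no p-value. Levels are log2 processed signals above the 75th percentile of the same array, and a probe's level is never set against that of another probe. A difference is called at 2-fold or more, that is 1 log2 unit. Probes spotted at least 5 times gave the technical SD of a log2 difference, which was 0.25 between the wild-type arrays, 0.22 between the P7 arrays and 0.20 between the Runx2+/- array and the P5 array. This SD covers neither mice nor labelling. The arrays differed in brightness, with 75th percentiles of 52.1 intensity units at P5, 22.8 in the P7 wild type and 124 in the Runx2+/- sample. Between 29.2% and 47.3% of all probes were well above background, and no spot was saturated. Runx2 itself had 271 intensity units at P5, 62.4 in the P7 wild type and 262 in the Runx2+/- sample with its brightest probe. After scaling it was 0.92 log2 units lower at P7 than at P5. It was 0.38 lower in the Runx2+/- sample than in the P7 wild type, within 2 technical SDs. The second of these values was 0.21 higher in the Runx2+/- sample after normexp background correction with the 75th percentile. The part of Runx2 that the allele lacks is not given, so this probe does not check the genotype.

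Of the 16 probes, 15 were well above background on all 3 arrays. The exception was 1 of the 2 Fbln5 probes, which was below that mark on all arrays. A total of 5 members had a single probe and 5 had several. The probes of Fbln1 and Loxl1 gave different sizes of difference, so 4 of them are shown here 5′ to 3′, as the scanner files list them. The first lies on chromosome 15, 85115550 to 85115609, plus strand, on mm9, and its last triplet, in capitals, is a stop codon when triplets are counted from its first base. The second lies on chromosome 15, 85081927 to 85081986, plus strand, and the files assign it to another transcript of Fbln1. The Loxl1 probes lie on chromosome 9, minus strand, at 58138570 to 58138629 and at 58145451 to 58145510, the latter nearer the 5′ end of the gene.
Fbln1 stop-codon probe: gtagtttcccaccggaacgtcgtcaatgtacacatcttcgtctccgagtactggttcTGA
Fbln1 upstream probe: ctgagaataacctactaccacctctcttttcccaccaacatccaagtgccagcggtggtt
Loxl1 3′ probe: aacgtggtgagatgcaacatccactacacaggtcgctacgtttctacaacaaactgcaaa
Loxl1 5′ probe: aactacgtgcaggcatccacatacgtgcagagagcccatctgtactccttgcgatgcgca
Exon and untranslated region were not looked up for any probe, since no mm9 gene models were at hand in this work.

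Eln encodes tropoelastin, the soluble precursor of the elastin core. Its single probe (chromosome 5, 135179129 to 135179188, minus strand, mm9) had 296.6 intensity units at P5, 639.1 in the P7 wild type and 1602 in the Runx2+/- sample. Scaled levels were 2.51, 4.81 and 3.69 log2 units. Eln was therefore highest in the P7 wild type, intermediate in the P7 Runx2+/- sample and lowest at P5, and both gaps exceeded 2 technical SDs. The P7 wild-type level was 4.93-fold above that at P5, a log2 difference of 2.30 ± 0.20 (error from the scanner software). Eln was the only member whose brightest probe gave a higher unscaled signal on the P7 wild-type array than on the P5 array, by 2.15 times, although the P7 wild-type array was the dimmer of the pair. In the Runx2+/- sample Eln was 2.18-fold lower than in the P7 wild type, a log2 difference of -1.12 ± 0.20. After normexp correction with the 75th percentile this value became 0.16, and the median of all genes then lay at 0.68.

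**Figure D1:**
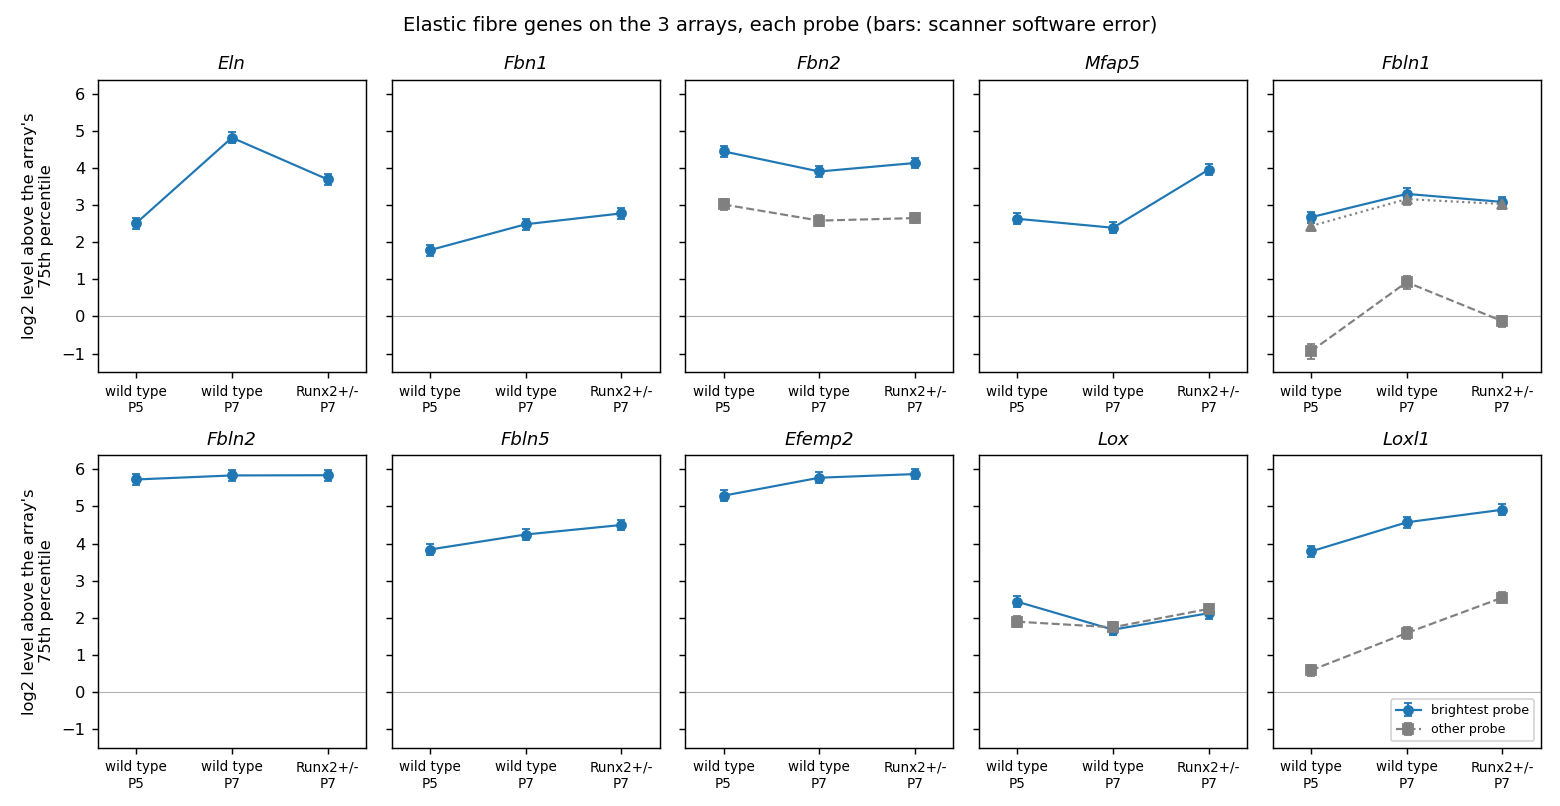
Log2 level above the 75th percentile of the array (vertical axis) on the arrays of P5 and P7 wild type and of P7 Runx2+/- (horizontal axis), for each elastic fibre gene and each probe above background. Blue circles are the brightest probe, grey symbols the others, and bars the scanner software's error. Eln peaks in the P7 wild type at 4.81, and Mfap5 stands highest in the Runx2+/- sample at 3.95.

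Markers of smooth muscle and pericytes were compared because arteries make elastin. Of the 10 markers, 9 were above background at P5, 8 in the P7 wild type and 10 in the Runx2+/- sample. Myocd and Des, both in that list, were not well above background in the P7 wild type. The summed scaled signal of the markers above background was 395, 392 and 263. Most of it came from Acta2 and Tagln, smooth muscle contractile genes whose age differences were -0.13 and -0.01. Their genotype differences were -0.97 and -0.44, which became 0.28 and 0.79 after normexp correction with the 75th percentile. The median of the 8 markers measured in each comparison was 0.33 for age and -0.40 for genotype, beside 0.08 and 0.10 over all genes, and the genotype median became 0.72 after normexp correction with the 75th percentile. For age Pdgfrb, a receptor of mural cells, was 0.85 higher at P7 and Rgs5 (a pericyte regulator of G protein signals) 0.54 lower. Among these markers Myh11 (smooth muscle myosin) and Cspg4 (a pericyte proteoglycan) were 1.06 and 1.93 log2 units lower in the Runx2+/- sample than in the P7 wild type, while Rgs5 was 0.99 higher. After normexp correction with the 75th percentile Myh11, Cspg4 and Rgs5 lay at -0.18, -0.74 and 1.62 for genotype. The part of these markers in either difference of Eln was not tested. In bulk tissue, fewer cells of a type and less RNA per cell cannot be told apart.

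The microfibril genes did not share one pattern. Fbn1 encodes fibrillin-1, the main microfibril protein. Its probe (chromosome 2, 125126727 to 125126786, minus strand) had 179.3, 127.0 and 850.0 intensity units on the P5, P7 wild-type and Runx2+/- arrays, or 1.78, 2.48 and 2.77 log2 units after scaling. It was 0.70 ± 0.21 higher at P7 than at P5, and 0.29 ± 0.21 higher in the Runx2+/- sample than in the P7 wild type, the latter within 2 technical SDs.

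Fbn2 encodes fibrillin-2, the fibrillin prominent in development. Both of its probes, on chromosome 18, were lower at P7 than at P5. The brighter one had 1133, 339.9 and 2177 intensity units, or scaled levels of 4.44, 3.90 and 4.13. Its age difference was -0.54 ± 0.20, just past 2 technical SDs (0.50). That of the other probe, 3532 bases upstream, was -0.44 ± 0.21, within 2 technical SDs. For genotype the probes gave 0.23 and 0.07, both within 2 technical SDs. Fbn1 and Fbn2 thus stood on opposite sides of 0 for age, with Fbn1 higher and Fbn2 lower at P7 in each of the 9 scalings and filters tried.

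Mfap5 encodes MAGP2, a small glycoprotein bound to microfibrils. Its probe (chromosome 6, 122478591 to 122478650, plus strand) had 321.9, 119.0 and 1923 intensity units, or scaled levels of 2.63, 2.39 and 3.95. The 2 wild-type levels differed by 0.24, within 2 technical SDs. The Runx2+/- level was 2.96-fold above that of the P7 wild type, a log2 difference of 1.56 ± 0.21, and 1.32 above that at P5. Mfap5 had the highest genotype difference of all members in each of the 9 scalings and filters, where it ranged from 1.46 to 2.34. Scaling to probes above background on all arrays moves all members by 1 constant, and the filters left their values unchanged. Those settings therefore add nothing on the order of the members. Both normexp settings likewise share an order.

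The fibulins lay within 2-fold in both comparisons by their brightest probes. Fbln2, a fibulin of basement membranes and elastic fibres, had 2753, 1297 and 7114 intensity units and scaled levels of 5.72, 5.83 and 5.84, which differ by less than 2 technical SDs. Efemp2 (fibulin-4), needed for elastin cross-linking, had 2034, 1243 and 7268 units and scaled levels of 5.29, 5.77 and 5.87. Its age difference of 0.48 ± 0.20 lay just within 2 technical SDs, and its genotype difference was 0.10 ± 0.20. Fbln5 (fibulin-5), which binds tropoelastin and cell integrins, had 744.6, 430.8 and 2811 units and scaled levels of 3.84, 4.24 and 4.50, with differences of 0.40 ± 0.20 and 0.26 ± 0.20. The steps between neighbouring levels did not exceed 2 technical SDs for any of these 3 genes, so no full order of the arrays is given. Between the Runx2+/- array and the P5 array, Fbln5 and Efemp2 differed by 0.66 and 0.58, past 2 technical SDs (0.40). Fbln2 differed by 0.11 there.

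Fbln1, a fibulin of elastic fibres and basement membranes, depended on the probe. Its brightest probe (chromosome 15, 85115998 to 85116057) had 331.2, 223.8 and 1053 intensity units and was 0.63 ± 0.21 higher at P7 than at P5. In the Runx2+/- sample this probe was 0.22 lower than in the P7 wild type, within 2 technical SDs. The upstream probe shown above, 34071 bases from it, had 280.8, 203.1 and 1012 units and gave 0.73 and -0.13. The stop-codon probe was dimmer, at 27.2, 43.1 and 113.6 units, and lies only 448 bases from the brightest one. It was 3.63-fold higher at P7 than at P5 (1.86 ± 0.27) and 2.07-fold lower in the Runx2+/- sample than in the P7 wild type (-1.05 ± 0.23). Those 2 differences have the same directions as those of Eln, while the other 2 Fbln1 probes gave less than 2-fold.

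The lysyl oxidases Lox and Loxl1 differed from each other with age. Lox, the founding enzyme of the family, had 281.4, 72.9 and 542.1 intensity units with its brightest probe, on chromosome 18, or scaled levels of 2.43, 1.68 and 2.12. This probe was 0.75 ± 0.21 lower at P7 than at P5. The other, 3553 bases nearer the 3′ end, was 0.15 ± 0.21 lower, within 2 technical SDs. For genotype the probes gave 0.44 and 0.50, so both were higher in the Runx2+/- sample than in the P7 wild type.

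Loxl1, the lysyl oxidase directed to elastic fibres, had 718.5, 540.8 and 3738 intensity units with the 3′ probe shown above, or scaled levels of 3.79, 4.57 and 4.91. It was 0.78 ± 0.20 higher at P7 than at P5. In the Runx2+/- sample it was 0.34 ± 0.20 higher than in the P7 wild type, within 2 technical SDs. The 5′ probe, 6881 bases away, had 78.1, 68.5 and 725.3 units and gave larger differences in the same directions, 1.0 ± 0.22 and 0.95 ± 0.21. With it, Loxl1 was 2.01-fold higher at P7 than at P5 and 1.94-fold higher in the Runx2+/- sample.

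The first comparison the design implies is that of P7 with P5 in the wild type. By brightest probe, 1 of 10 members (Eln) was at least 2-fold higher at P7, beside 5.06% of the 12858 genes above background on both arrays. None was at least 2-fold lower, beside 2.33% of those genes. The other 9 members lay within 2-fold, between -0.75 (Lox) and 0.78 (Loxl1). Fbn1, Fbln1, Fbln2, Fbln5, Efemp2 and Loxl1 lay above 0 with Eln, and Fbn2, Mfap5 and Lox below it, except that all 4 fibulins turned below 0 after normexp correction with the 75th percentile and Fbln2 also after normexp with median scaling. The median of the members was 0.44 (member SD 0.86), beside 0.08 over all genes tested, and it turned to -0.18 after normexp correction with the 75th percentile, where all genes had a median of -0.26. Eln lay 1.90 above the median of the other members, a distance that 1 constant scaling factor per array cannot alter. It was the highest member in each of the 9 scalings and filters, several of which could not change that rank. Its difference lay between 1.41 and 2.30, and 99.9% of all genes tested had a lower value.

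The second comparison is that of Runx2+/- with wild type at P7, which uses the same P7 wild-type array. In it 1 member (Mfap5) was at least 2-fold higher and 1 (Eln) at least 2-fold lower, beside 4.31% and 13.7% of 12898 genes. The other 8 lay between -0.22 (Fbln1) and 0.44 (Lox), of which Fbln1 turned above 0 after both normexp corrections, at 0.80 and 0.09. With scaling to probes above background on all arrays, Fbln2 turned to -0.07 (75th percentile) and -0.10 (median). The median of the members was 0.24 (member SD 0.66), beside 0.10 over all genes tested. After normexp correction with the 75th percentile it became 1.22, where all genes had a median of 0.68. Eln was the lowest member in each of the 9 scalings and filters, several of which could not change that rank. It lay below the median of all genes in each of the 9, by 0.28 to 1.25. It lay 1.38 below the median of the members other than Eln, and Mfap5 lay 1.34 above the median of the members other than Mfap5.

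**Figure D2:**
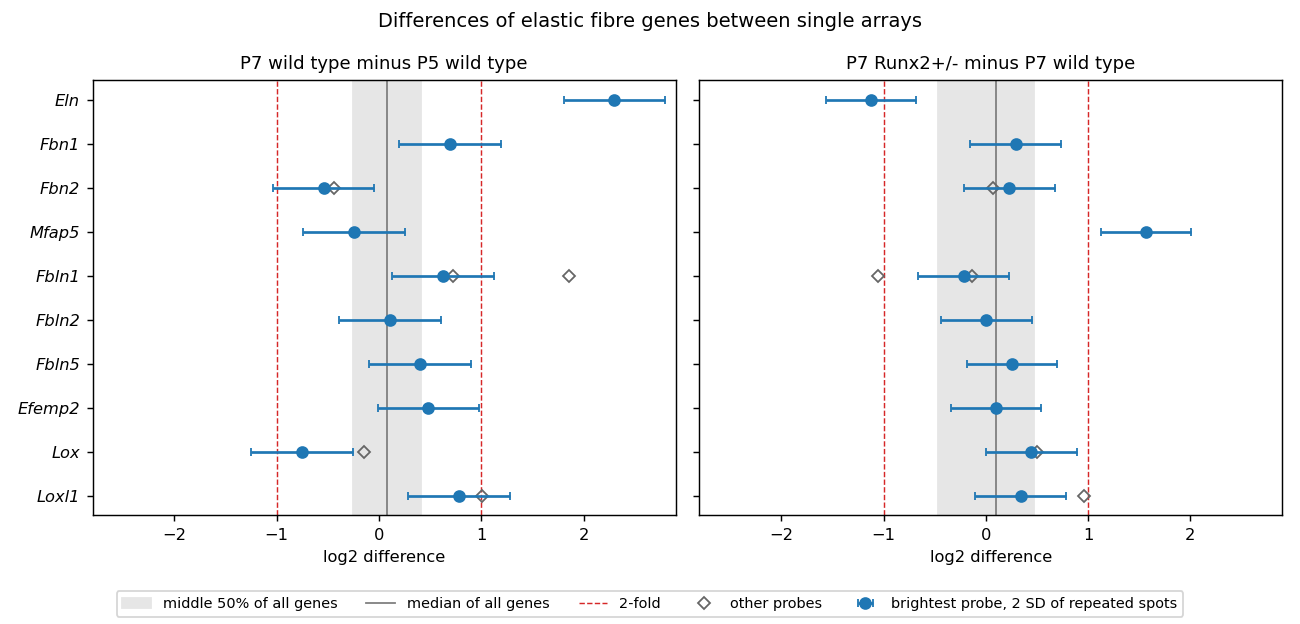
Log2 difference (horizontal axis) of each elastic fibre gene for P7 minus P5 wild type (left) and P7 Runx2+/- minus P7 wild type (right). Blue points are the brightest probe with 2 technical SDs, open diamonds the other probes, the grey band the middle 50% of all genes and dashed lines 2-fold. Eln lies at 2.30 on the left and -1.12 on the right, where Mfap5 lies at 1.56.

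Markers of other cells also differed on these arrays. Over all genes tested 13.7% were at least 2-fold lower and 4.31% higher for genotype, and 2.33% lower and 5.06% higher for age. Of 7 osteoblast markers, 6 were at least 2-fold lower and none at least 2-fold higher in the Runx2+/- sample than in the P7 wild type. The median log2 difference of these 7 markers was -2.10, beside 0.10 over all genes. Their summed scaled signal was 881 at P5, 1331 in the P7 wild type and 265 in the Runx2+/- sample, so it was highest in the P7 wild type, as Eln was, but lowest in the Runx2+/- sample. After normexp correction with the 75th percentile the osteoblast median for genotype became -0.88. There Col1a1, Bglap2 and Dlx5 stayed at least 2-fold lower, and Alpl, Sp7 and Spp1 lay at -0.78, -0.88 and -0.49. Ibsp, at -0.97 as reported, turned to 0.24. The 5 neutrophil markers summed to 821, 66.8 and 324 on the 3 arrays. Each sum covers only the markers above background on that array. Of the 7 leptomeningeal markers 6, 4 and 5 were above background, and these summed to 74.2, 37.9 and 69.5. Slc6a13 and Slc22a6 were not well above background in the P7 wild type. The median of the 4 measured in both comparisons was 0.06 for age and 0.33 for genotype. Ptgds, Foxc1, Aldh1a2 and Igfbp2 lay at -2.77, -0.06, 0.19 and 0.66 for age. For genotype they lay at -0.67, 0.81, -0.14 and 1.41. Of 6 chondrocyte markers 3 were measured in both comparisons. Col2a1 and Col9a1, collagen genes of cartilage, were at least 2-fold higher in both. They lay at 1.34 and 1.06 for age and at 2.38 and 1.32 for genotype. The remaining one, Acan, lay at 0.81 for age and went the other way for genotype, at -0.67. After normexp correction with the 75th percentile Col2a1 and Col9a1 lay at 0.54 and 0.41 for age. With normexp and median scaling Col9a1 lay at 0.46 for genotype. The summed signal of that list was 11.8, 20.6 and 33.4, from 5, 3 and 6 markers above background. The endothelial markers summed to 115, 114 and 188, from 7, 6 and 7 markers above background. Of 6 measured for genotype 3 were at least 2-fold higher and 1 lower, with a median of 0.73. None was 2-fold apart for age, with a median of 0.16. Skeletal muscle markers summed to 7.32, 3.84 and 4.57, from 4, 2 and 4 markers above background. Of 4 epidermal markers 3, 0 and 3 were above background. The 6 suture mesenchyme markers were above background on each array except Axin2, a Wnt target, which was not so on any of them. Of the other 5, Gli1 (a hedgehog target) and Twist1 were 1.70 and 1.0 log2 units lower in the Runx2+/- sample. Prrx1, Six2 and Msx2 lay at 0.42, 0.40 and 0.11 for genotype, and none of the 5 was 2-fold apart for age. Their medians were 0.46 for age and 0.11 for genotype, beside 0.08 and 0.10 over all genes. Their summed scaled signal was 35.4, 49.7 and 52.4. After normexp correction with the 75th percentile Gli1 and Twist1 lay at -0.61 and -0.18 for genotype. The part of these lists in the differences of the members was not tested.

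**Figure D3:**
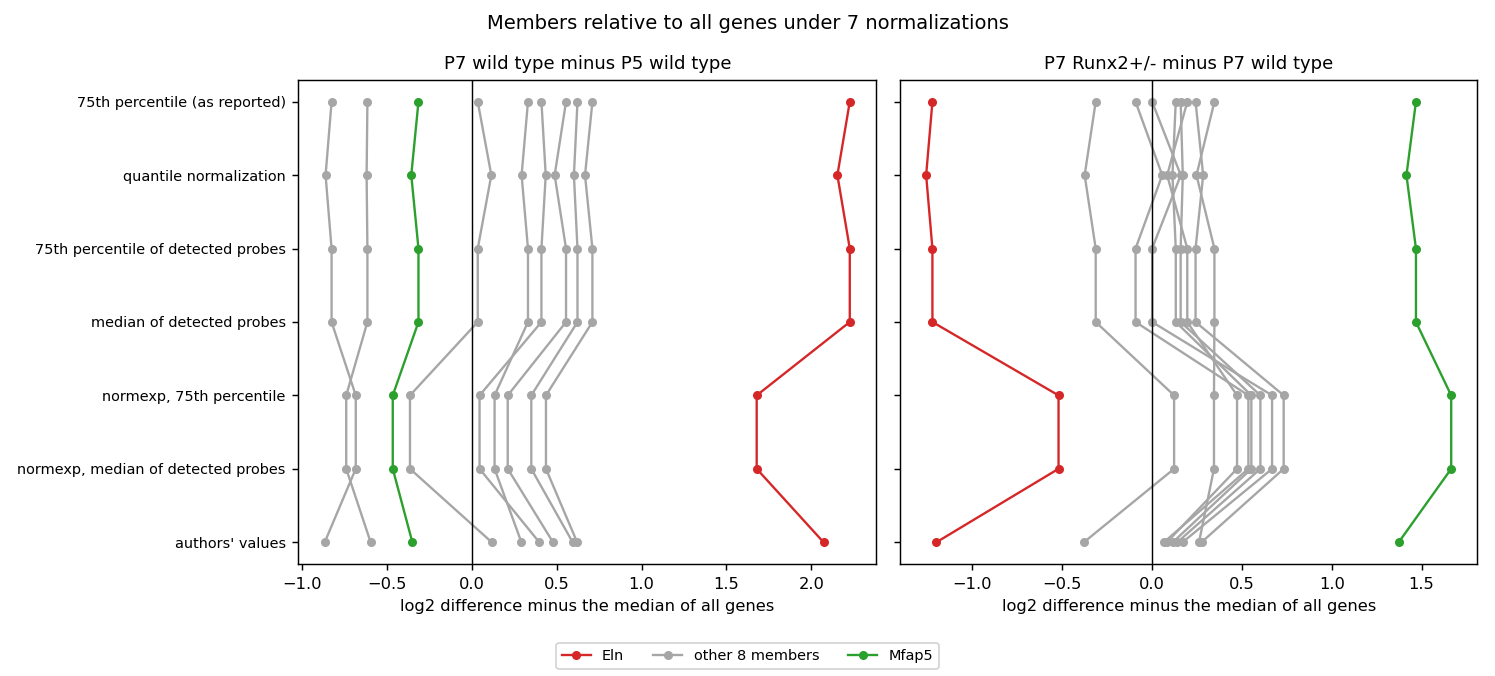
Log2 difference of each member minus the median of all genes (horizontal axis) under 7 normalizations (vertical axis), for age (left) and genotype (right). Eln, in red, lies to the right of all other members for age and to the left of them for genotype in every row, and Mfap5, in green, lies to the right of them for genotype.

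Other genes of the pathway were taken from lists. Of 15 further genes of microfibril and elastic fibre assembly, 12 were above background on both wild-type arrays. Their median for age was 0.56, beside 0.08 over all genes tested. Of the 12, 1 was at least 2-fold higher at P7 and none lower, beside 5.06% and 2.33% of all genes tested. The gene was Emilin1, which encodes a glycoprotein at the interface of elastin and microfibrils. It had 83.6, 75.2 and 363.9 intensity units and was 1.04 higher at P7 than at P5. This value reached 2-fold in 5 of 8 settings and was 0.41 after normexp correction with the 75th percentile, where the median of the list was -0.04. Emilin2, a relative of it, was 0.98 lower. For genotype the median of 12 genes was 0.13, beside 0.10 over all genes tested. In the Runx2+/- sample 1 of 12 was at least 2-fold lower than in the P7 wild type and none higher. Over all genes tested these shares were 13.7% and 4.31%. The gene lower in the Runx2+/- sample was Ltbp4, at 1742, 1296 and 3509 intensity units. It encodes a latent TGF-beta binding protein that works with fibulin-5 in elastic fibre assembly. Ltbp4 was 0.77 higher at P7 than at P5 and 1.01 lower in the Runx2+/- sample, and its other probe gave 1.12 and -0.91. The genotype value became 0.24 after normexp correction with the 75th percentile and was below the median of all genes in all 8 settings tried for it. Efemp1, a relative of Efemp2, was not well above background in the P7 wild type and was at least 2.44-fold higher in the Runx2+/- sample. Thsd4, an ADAMTS-like protein that promotes microfibrils, was at least 2.08-fold lower at P7 than at P5.

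Of 8 genes of cross-linking and its supply, 7 were measured in both comparisons. None was 2-fold apart for age, where 5.06% of all genes tested were higher and 2.33% lower. Loxl2, another lysyl oxidase, came nearest at 0.98 with its brightest probe. Its 3 probes ranged from 0.30 to 0.98, and the value was 0.21 after normexp correction with the 75th percentile. For genotype 1 was lower and none higher, beside 13.7% and 4.31% of all genes tested. Loxl4 was 3.61-fold lower in the Runx2+/- sample, but was dim at 48.4, 20.8 and 31.5 intensity units where the lowest signal well above background was 13.3 on the P7 wild-type array. The medians of the list were 0.11 for age and -0.25 for genotype, beside 0.08 and 0.10 over all genes tested. Of 11 proteases that can degrade elastin, 7 were measured in both comparisons. Mmp2 (gelatinase A) was 2.48-fold higher at P7 than at P5. In the Runx2+/- sample Ctsl (cathepsin L) was 3.02-fold higher than in the P7 wild type, and Mmp9 (gelatinase B) and Elane (neutrophil elastase) were 6.70-fold and 2.19-fold lower. After normexp correction with the 75th percentile Mmp2 was at 0.50 for age, and Elane and Loxl4 at -0.31 and -0.96 for genotype, all under 2-fold, while Ctsl and Mmp9 stayed past it in all 8 settings. Ctsg (cathepsin G, a neutrophil protease) had 83.6, 14.6 and 113 intensity units and was not well above background in the P7 wild type. It was at least 2.5-fold lower there than at P5 and at least 1.41-fold higher in the Runx2+/- sample. Neither Mmp12 (macrophage elastase) nor Mmp7 stood well above background anywhere. The protease medians were 0.72 for age and -0.15 for genotype, beside the same 0.08 and 0.10 over all genes tested.

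**Figure D4:**
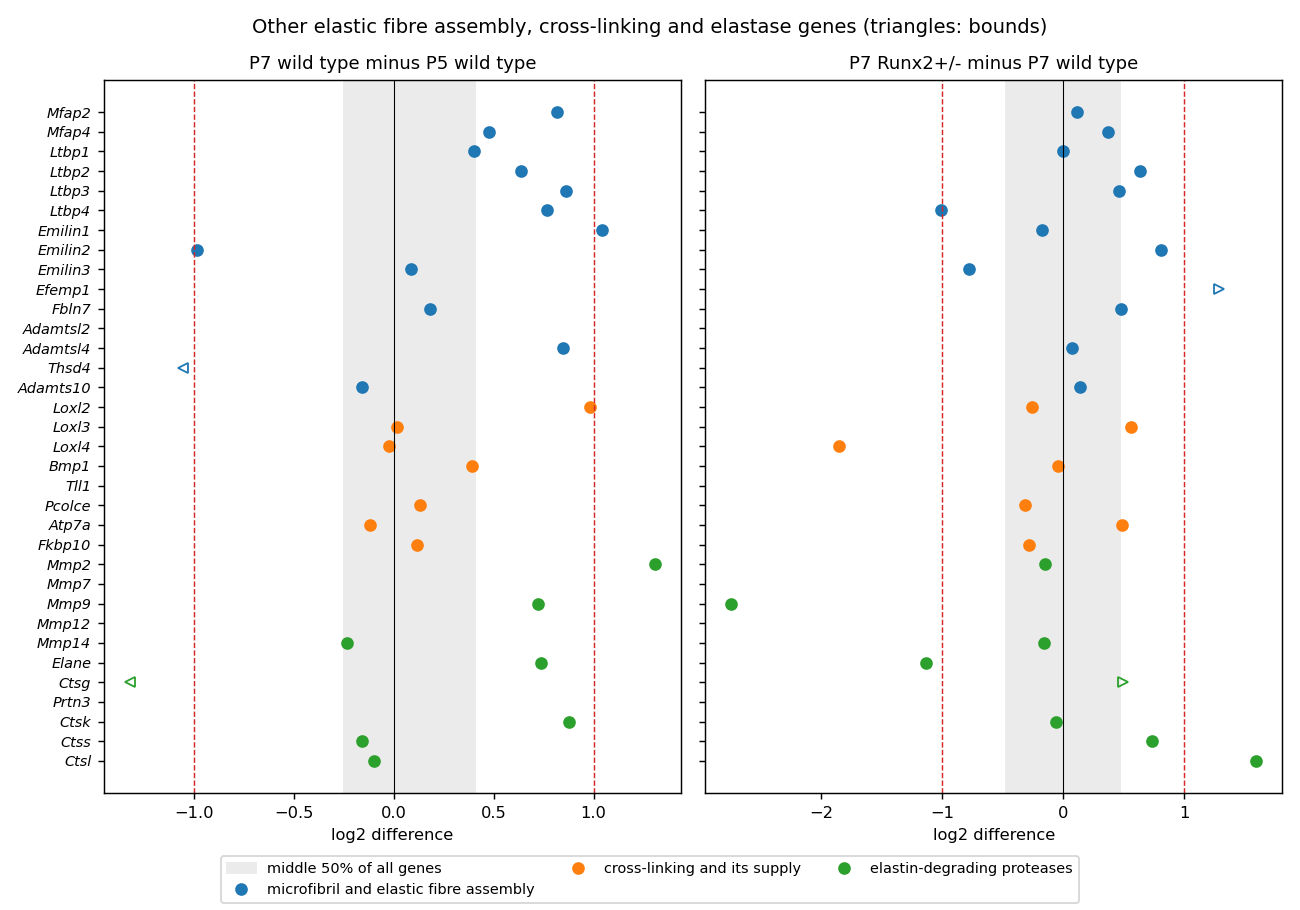
Log2 difference (horizontal axis) of 34 further genes by list, for P7 minus P5 wild type (left) and P7 Runx2+/- minus P7 wild type (right). Open triangles are bounds, genes without a symbol have no order, the grey band is the middle 50% of all genes and dashed lines are 2-fold. Mmp2 lies farthest to the right for age at 1.31, and Mmp9 farthest to the left for genotype at -2.74.

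The genes most like Eln were sought by the distance between their 2 log2 differences and those of Eln, over the 3 arrays and 12824 genes above background on all of them. The 5 nearest were Pyroxd1, Lrif1, a transcript known only as NAP094322-001, 2310030G06Rik and Gm5089. Pyroxd1 lay at 2.29 for age and -1.06 for genotype. The other 4 lay between 1.92 and 2.62 for age and between -1.53 and -0.82 for genotype. No other elastic fibre gene was among the 5 by its brightest probe, the only probe searched. The Fbln1 stop-codon probe, at 1.86 and -1.05, was thus not eligible. Both differences use the P7 wild-type array, so the likeness rests on that array in particular.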

How the data were processed

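Per the labels' protocols, cRNA amplified from suture RNA carried Cy3, and each group was read on 1 Agilent array. The 3 arrays shared 1 slide and 1 scan day, so batch could not be tested. The authors deposited scanner files from Agilent Feature Extraction (10.7.1.1 per the file headers, 9.5.1.1 per the submitters' processing notes). Their processed intensity, background-subtracted and spatially detrended per the file headers, was used with its software error and spot flags. Outlier and control spots were left out, spots of a probe were averaged on the log2 scale, and the 75th percentile of the array was subtracted. Each gene was read from its brightest probe, and 27234 probes were named through RefSeq accessions (GRCm38.p6 names only). Differences needed both arrays well above background, and bounds were set from the lowest such value. The deposited table of processed intensity served as an alternative. The members, gene lists and settings were chosen with earlier results of these data known. All members and their probes are named, and of the further lists those 2-fold apart, with Emilin2, Loxl2, Efemp1, Thsd4, Mmp7 and Mmp12 and the marker genes Myh11, Cspg4, Rgs5, Myocd, Des, Slc6a13, Slc22a6, Axin2, Acta2, Tagln, Pdgfrb, Ptgds, Igfbp2, Col2a1, Col9a1, Gli1, Twist1 and the protease Ctsg added after their values were seen. The markers Acan, Prrx1, Six2, Msx2, Foxc1 and Aldh1a2 and the osteoblast markers named were added in the same way. Tools were Python 3.11.15, pandas 2.3.3 and limma 3.58.1 (normexp, offset 50), and the steps were tested on simulated data. The number of arrays limits the precision.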

Additional observations from a re-analysis of the deposited data

How the results depend on the processing

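Values were recomputed under quantile normalization, scaling to the 75th percentile or the median of probes above background on all arrays, normexp correction, stricter or no filters on dim probes, other probes per gene, the authors' values and other thresholds. Of 200 single-gene values under alternatives, 163 stayed within the technical SD of the reported value, 36 moved further (31 of them under normexp), and for genotype Eln, past 2-fold as reported, changed sign. Of values within 2-fold as reported, 10 changed sign, all of fibulins and 7 of them under normexp; the other 3 were genotype values of Fbln2 and Efemp2 within 0.10 of 0 under scaling to detected probes. Normexp with the 75th percentile gave an age median of the members of -0.18 with 1 at least 2-fold lower, and for genotype a median of 1.22 with 8 higher, 0 lower and Eln at 0.16. It moved the median of all genes from 0.08 to -0.26 for age and from 0.10 to 0.68 for genotype. Normexp with the median of detected probes gave an age median of 0.12, a genotype median of 0.51 and 0 lower. With the mean over probes, 2 members were at least 2-fold higher for age, the second being Fbln1. At 1.5-fold, 4 members were higher and 1 lower for age, and at 3-fold 0 were higher or lower for genotype. The cause was not tested. Over all genes the calls for age under normexp with the 75th percentile were 12 higher and 923 lower, against 651 and 299 as reported, and for genotype 4326 and 316, against 556 and 1769. No paired analysis was possible because each group has 1 array, and no array could be left out.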

Other observations

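The P7 Runx2+/- array was also set against the P5 wild-type array, where genotype and 2 days of age cannot be told apart. By brightest probe Mfap5 was 1.32 log2 units higher in the Runx2+/- sample, Eln 1.18, Loxl1 1.12 and Fbn1 0.99 higher. Fbln5, Efemp2, Fbln1 and Fbln2 were 0.66, 0.58, 0.41 and 0.11 higher. Fbn2 and Lox were each 0.31 lower, although the 3′ probe of Lox was 0.34 higher. The 5′ probe of Loxl1 had the largest difference among all member probes, 3.89-fold. In the authors' deposited table Eln had values of 941, 4131 and 1911 at P5, in the P7 wild type and in the Runx2+/- sample, and Mfap5 had 1024, 837 and 2300. The scaling behind that table is not given in the sources used here.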
